A study of Mus musculus with 68 samples.

Results

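The genes described here are 9 members of the epithelial to mesenchymal transition set: the cadherins Cdh1 and Cdh2, the mesenchymal products Vim and Fn1, and the transcription factors Snai1, Snai2, Twist1, Zeb1 and Zeb2. They were chosen by name, and all 21 probe sets annotated to them were examined, among 18193 genes that had a probe set annotated to that gene alone. Each gene was read from its probe set with the highest mean. The study measured total RNA of mouse mammary tumours on 68 Affymetrix arrays carrying 66 animal numbers. All animals belonged to 1 labelled group: spontaneous tumours of the MMTV-PyMT transgene in the ((NZB x PyMT) x FVB) backcross. The animals' ages, treatments and tumour stages are not given in the sources used here. No animal without a tumour is among the arrays. The transgene is driven by the mouse mammary tumour virus promoter, which is active mainly in mammary epithelium, so that the tumour cells are epithelial while fibroblasts, vessels and immune cells come from the host. Each animal of the backcross carries its own mix of alleles, and animals are therefore not genetic copies of each other. The question put to the data was whether the 9 genes followed the stroma or the tumour epithelium across tumours.

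In the epithelial to mesenchymal transition, epithelial cells loosen their cell to cell junctions and take on features of mesenchymal cells. Cdh1 encodes E-cadherin, the main adhesion protein of epithelial junctions, and the factors of the Snail, Twist and Zeb families can bind E-box motifs and repress it. Cdh2 (N-cadherin), Vim (the intermediate filament protein vimentin) and Fn1 (the matrix protein fibronectin) are widely used as markers of the mesenchymal state, yet fibroblasts, pericytes and other stromal cells of a tumour express several of them without any transition.

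Promoter windows are shown for 3 members: Snai1, Vim and Twist1. Snai1 was taken because it rose with the epithelium score, unlike the other transcription factors. That call was lost with the array set, explained below, in the fit. Vim and Twist1 were taken because they rose together and with the fibroblast score. The windows run from 250 bases before to 50 bases after the gene start, on the plus strand of GRCm38.p6, and were taken from RefSeq. Of the 9 genes, 4 had an entry there (Vim, Snai1, Twist1 and Zeb2). The windows lie at chr2:167537945-167538244 for Snai1, chr2:13574061-13574360 for Vim and chr12:33957421-33957720 for Twist1. They are printed 5′ to 3′, and capitals mark the E-box CACCTG.
Snai1: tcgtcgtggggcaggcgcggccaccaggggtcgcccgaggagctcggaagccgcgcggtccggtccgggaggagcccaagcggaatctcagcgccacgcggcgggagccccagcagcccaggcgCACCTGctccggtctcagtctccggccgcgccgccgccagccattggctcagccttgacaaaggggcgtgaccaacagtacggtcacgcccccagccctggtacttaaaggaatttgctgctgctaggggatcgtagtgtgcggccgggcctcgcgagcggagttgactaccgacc
Vim: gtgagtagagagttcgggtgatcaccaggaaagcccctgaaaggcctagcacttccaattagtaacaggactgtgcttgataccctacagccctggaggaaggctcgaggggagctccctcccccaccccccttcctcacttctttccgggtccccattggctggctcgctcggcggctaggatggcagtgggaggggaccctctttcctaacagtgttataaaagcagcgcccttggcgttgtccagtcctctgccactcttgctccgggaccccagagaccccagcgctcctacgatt
Twist1: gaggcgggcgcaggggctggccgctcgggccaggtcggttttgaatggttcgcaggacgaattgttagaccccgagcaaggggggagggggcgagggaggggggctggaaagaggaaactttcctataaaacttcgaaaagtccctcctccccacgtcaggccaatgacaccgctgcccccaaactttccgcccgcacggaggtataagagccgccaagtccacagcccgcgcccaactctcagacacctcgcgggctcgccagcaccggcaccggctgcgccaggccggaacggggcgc
The E-box was searched as CANNTG, which is its own reverse complement, and as CACCTG or its reverse complement CAGGTG, every match of which is also a match of CANNTG. The Snai1 window held 1 match, CACCTG, starting at position -126 relative to the gene start. The windows of Vim and Twist1 held 0 matches, and so did the windows of Zeb2. Of 32851 promoter windows of the same length, 72.3% held CANNTG and 20.2% held CACCTG or CAGGTG.

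Values are robust multi-array average (RMA) values read as log2, so that a difference of 1 is a 2-fold difference. In 12 arrays the mean of the 18S ribosomal RNA control probe sets lay between 8.97 and 10.16, against 5.03 to 6.84 in the other 56, and the comparisons use the 56 arrays below 8, which carry 56 animal numbers, except where 68 arrays are named. These 56 fall into array sets 1, 3 and 4, with 39, 9 and 8 arrays, found in the values as splits that many probe sets share exactly. The labels do not explain these sets. Set 3 holds 8 of its 9 arrays with the suffix R in the title, and all arrays of set 4 carry animal numbers above 4000. Median 3′ minus 5′ differences of the Actb control probe sets, a measure of RNA quality, were 0.86, 1.10 and 0.61 in sets 1, 3 and 4. The tumours were placed by list scores, the mean z-score of marker genes that include none of the 9 genes: 19 fibroblast genes led by collagens and 20 epithelium genes such as Epcam and the keratins Krt8 and Krt18. The fibroblast and epithelium scores were nearly unrelated (r = 0.01). The epithelium score was below 0 in every array of set 3 (-3.89 to -0.31) and above 0 in every array of set 4 (0.47 to 2.11), against -1.65 to 1.31 in set 1. The calls of the 9 genes with this score are therefore given with the array set in the fit as well. It also fell with the Actb 3′ minus 5′ difference (r = -0.51), and the part of RNA quality in the results was not tested beyond the fit with both control differences as covariates.

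E-cadherin varied least and N-cadherin most among the tumours, with SDs of 0.17 and 0.87. Cdh1 lay at 10.73 in the lowest, 11.22 in the median and 11.61 in the highest array, a range of 1.84-fold. Cdh2 had a lowest value of 3.72, a median of 4.62 and a highest value of 8.57. No fold is given for this range, since its lower end lies below the median of all values, 5.42, which served as the limit for low values. Only 2 tumours carried the top of that range, since the next highest value of Cdh2 was 6.59. Vim ran from 10.36 over a median of 11.10 to 12.07. Fn1 ran from 8.79 over 10.35 to 11.47. These are ranges of 3.28-fold and 6.39-fold, and the low end of Fn1 was set by 1 tumour.

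Among the transcription factors, Snai2 and Zeb1 had wider ranges than Snai1 and Zeb2. Snai1 had a lowest value of 5.0, a median of 5.61 and a highest value of 6.67, and Snai2 had 6.88, 8.01 and 9.23. Twist1 had 3.88, 4.86 and 6.23, and Zeb1 had 6.01, 7.07 and 8.63. Zeb2 stayed between 5.20 and 6.32 with a median of 5.60. Levels of different probe sets are not set against each other, since probes differ in brightness. All 9 genes passed the filter on low values (95th percentile above the median of all values), with 12568 genes in all.

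Set 1 overlapped both other sets for every gene, and Snai1 was highest in set 4. Snai1 averaged 5.60 ± 0.28 (SD, n = 39) in set 1, 5.49 ± 0.20 (SD, n = 9) in set 3 and 6.25 ± 0.29 (SD, n = 8) in set 4. The lowest Snai1 value of set 4, 5.84, was above the highest of set 3, 5.81, so these 2 sets did not overlap for Snai1. They overlapped for the other 8 genes. Cdh2 averaged 5.60 in set 3 against 4.82 in set 1 and 4.59 in set 4, and its highest array was in set 3. Means of Cdh1 were 11.24, 11.12 and 11.33, and those of Vim 11.09, 11.19 and 10.91, in sets 1, 3 and 4.

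**Figure D1:**
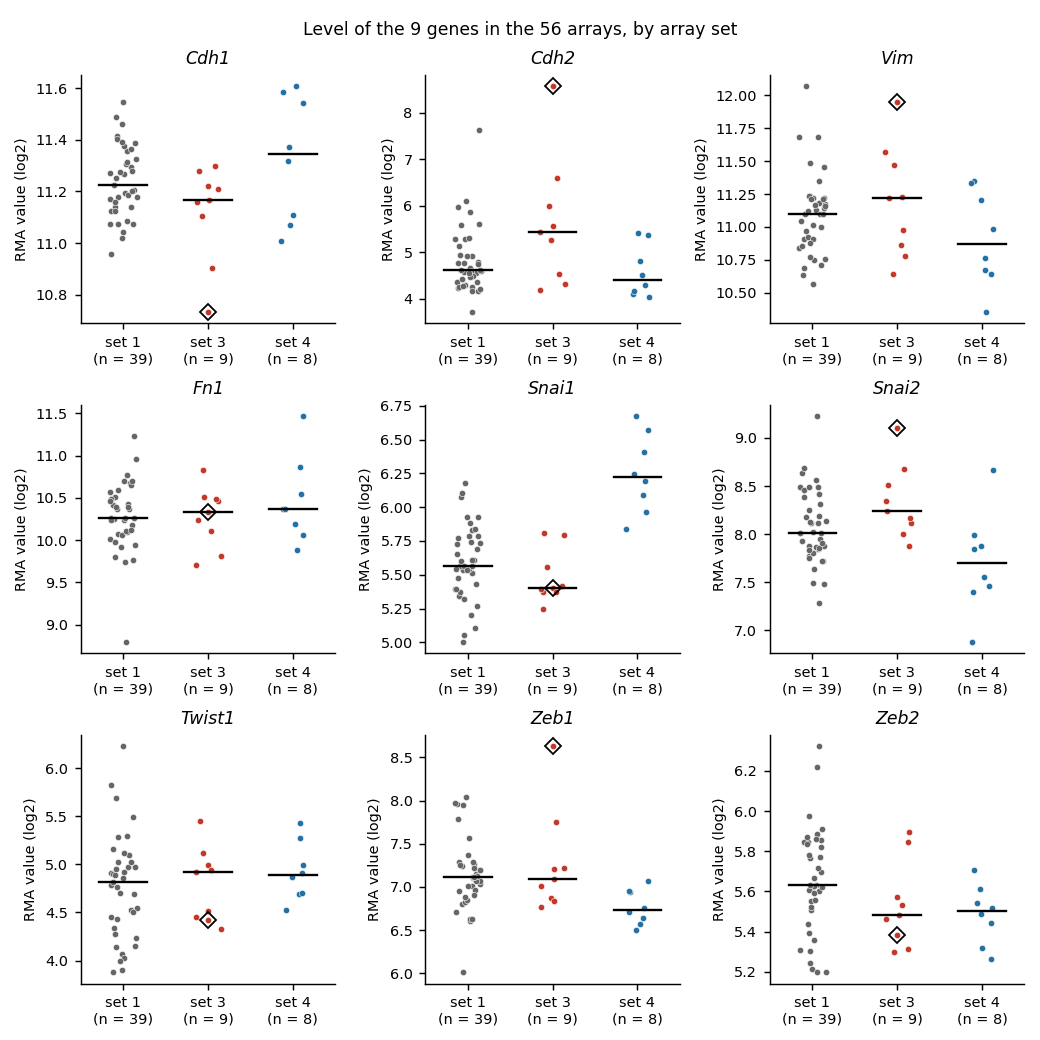
Level of the 9 genes (RMA, log2) in each of the 56 arrays, by array set, with 1 point per tumour and a bar at the median of the set; the open diamond marks tumour 3854R. Cdh2 reaches 8.57 in that tumour, where Cdh1 has its lowest value, 10.73, and all Snai1 values of set 4 are at or above 5.84.

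Twist1, Fn1, Zeb1, Vim and Zeb2 rose with the fibroblast score, and limma called 0 of the 9 genes lower (0 at an unadjusted p under 0.05). The change per SD of the score was 0.32 ± 0.05 (SE) for Twist1, 0.26 ± 0.04 for Fn1, 0.18 ± 0.05 for Zeb1, 0.14 ± 0.04 for Vim and 0.11 ± 0.03 for Zeb2, on the log2 scale over 56 arrays. In the limma fit over 12568 genes, the adjusted p was 3.63e-07 for Twist1, 1.81e-06 for Fn1, 0.00408 for Zeb2, 0.00848 for Zeb1 and 0.012 for Vim. By the same test 12.4% of all genes tested were higher and 9.12% were lower, so 5 of 9 members were called where about 1 gene in 8 was. In bulk tumour RNA, more cells of a type and more RNA per cell cannot be told apart. Both cadherins, Snai1 and Snai2 did not pass, with changes of 0.02 for Cdh1 (adjusted p = 0.70), -0.19 for Cdh2 (0.233), -0.01 for Snai1 (0.955) and 0.00 for Snai2 (0.984).

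The relation was tightest for Twist1, a basic helix-loop-helix factor of mesoderm. Its r with the fibroblast score was 0.67 (rho = 0.71, permutation p = 1e-05, the smallest that 100000 draws can give), 0.66 without the 2 arrays farthest from the median score, and 0.69, 0.84 and 0.87 within sets 1, 3 and 4. For Fn1 r was 0.64 (rho = 0.65, permutation p = 1e-05), 0.59 without the 2 farthest arrays, and 0.83, 0.47 and 0.30 within the sets. Zeb2 gave r = 0.45 (rho = 0.54, permutation p = 0.00058), 0.49 without the 2 farthest arrays, and 0.46, 0.35 and 0.20 within the sets. For these 3 genes r was above 0 in each array set.

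Zeb1 and Vim had r above 0 with the fibroblast score in sets 1 and 4, and in set 3 only without tumour 3854R. Sets 3 and 4 hold 9 and 8 arrays, so r within them is imprecise. Zeb1 gave r = 0.42 over the 56 arrays (rho = 0.64, permutation p = 0.0014) and 0.63 without the 2 farthest arrays, with 0.75, -0.46 and 0.46 within sets 1, 3 and 4. Vim gave r = 0.40 (rho = 0.51, permutation p = 0.0023) and 0.56 without the 2 farthest, with 0.61, -0.22 and 0.53 within the sets. Tumour 3854R, in set 3, combined a low fibroblast score with high Zeb1 and Vim; without it r was 0.69 for Zeb1 and 0.59 for Vim over all sets, and 0.41 and 0.47 over the other 8 arrays of set 3. With that tumour left out and the scores made anew, the same 5 members were called (11.3% of genes higher, 6.41% lower). The 5 were also called with the array set in the fit (13.4% higher, 10.6% lower) and in set 1 alone (9.52% of genes higher), where the limma adjusted p for Vim was 0.000744 and for Zeb1 1.44e-06. Among the 15 animals numbered above 4000, limma called 0 of the 8 members tested there (1 at an unadjusted p under 0.05, Vim), and among the 41 numbered below, Vim did not pass (adjusted p = 0.0779).

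Cdh1 and Snai1 rose with the epithelium score, while Zeb1, Cdh2, Snai2 and Vim fell. Changes per SD of the score were 0.10 ± 0.02 (SE) for Cdh1 and 0.20 ± 0.04 for Snai1, against -0.27 ± 0.05 for Zeb1, -0.47 ± 0.10 for Cdh2, -0.19 ± 0.05 for Snai2 and -0.15 ± 0.04 for Vim. The limma adjusted p was 6.63e-06 for Zeb1, 5.62e-05 for Cdh1, 7.38e-05 for Snai1, 8.13e-05 for Cdh2, 0.00184 for Snai2 and 0.00243 for Vim. This score moved many genes, 26.4% higher and 17.5% lower, so the share of members called higher (2 of 9) is near the background and that called lower (4 of 9) is above it. Fn1 changed by -0.04 (adjusted p = 0.59), Twist1 by -0.01 (0.879) and Zeb2 by -0.03 (0.478).

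Cdh1 and Zeb1, a repressor of E-cadherin, had opposite signs over the 56 arrays and in set 1, while the values within set 3 depended on tumour 3854R. Cdh1 had r = 0.57 with the epithelium score (rho = 0.41, permutation p = 1e-05), 0.41 without the 2 farthest arrays, and 0.36, 0.91 and 0.46 within sets 1, 3 and 4. Zeb1 had r = -0.61 (rho = -0.50, permutation p = 1e-05), -0.49 without the 2 farthest, and -0.51, -0.81 and 0.26 within the sets. Cdh2 had r = -0.54 (rho = -0.37, permutation p = 9e-05), -0.32 without the 2 farthest, and -0.30, -0.74 and -0.43 within the sets. Vim had r = -0.44 (rho = -0.38, permutation p = 0.00086), -0.32 without the 2 farthest, and -0.35, -0.57 and -0.24 within the sets. Over the other 8 arrays of set 3, without tumour 3854R, r was 0.76 for Cdh1, -0.09 for Zeb1, -0.01 for Cdh2 and 0.13 for Vim, so the values of the last 3 genes within set 3 rest on that tumour. Without the 2 farthest arrays of the set, r for Cdh1 was 0.30 in set 1, 0.25 in set 3 and 0.01 in set 4, so its values in sets 3 and 4 rest on few arrays.

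The calls of Snai1 and Snai2 were lost with the array set in the fit. Snai1, a zinc finger factor of the Snail family, had r = 0.55 over all 56 arrays (rho = 0.58, permutation p = 3e-05) and 0.53 without the 2 farthest, but 0.32, 0.19 and 0.01 within sets 1, 3 and 4, and its adjusted p was 0.214 with the set in the fit. Snai2 (Slug) had r = -0.45 (rho = -0.36, permutation p = 0.00076) and -0.30 without the 2 farthest, with -0.29, -0.53 and 0.35 within the sets (0.58 in set 3 without tumour 3854R), and its adjusted p became 0.199. With the set in the fit 7.12% of genes were higher and 4.11% lower, and Cdh1 (adjusted p = 0.0054), Zeb1 (0.00058), Cdh2 (0.00611) and Vim (0.0289) passed. In set 1 alone only Zeb1 passed (adjusted p = 0.011), where 5.56% of genes were lower. Without tumour 3854R all 6 calls stood (27.2% of genes higher, 16.2% lower), but the change of Cdh2 shrank from -0.47 to -0.25 per SD (adjusted p = 0.023).

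**Figure D2:**
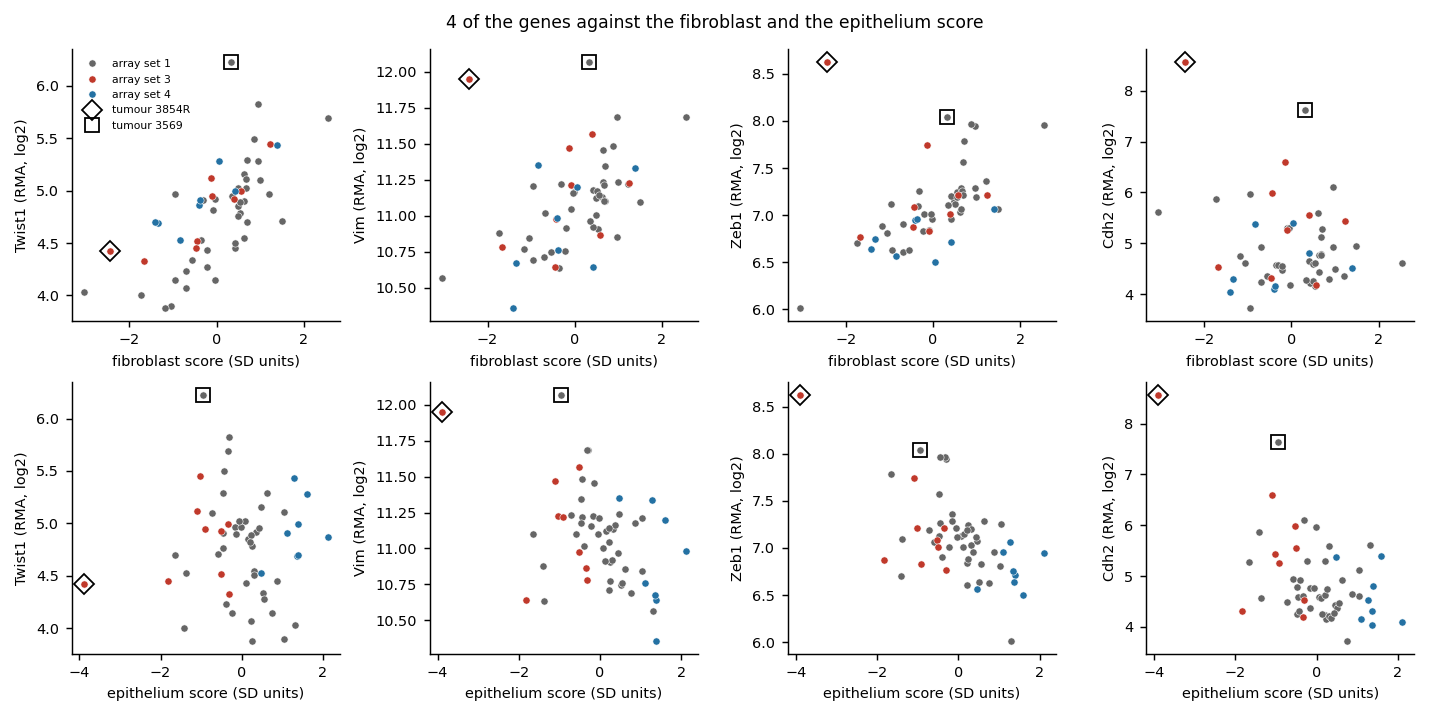
Twist1, Vim, Zeb1 and Cdh2 (RMA, log2) against the fibroblast score (upper row) and the epithelium score (lower row) in SD units, 1 point per tumour, coloured by array set. Tumour 3854R (diamond) lies at -2.44 on the fibroblast and -3.89 on the epithelium score with high Vim, Zeb1 and Cdh2, and tumour 3569 (square) has the highest Vim and Twist1.

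Fitted together, the slopes on the fibroblast and the epithelium score differed for 8 of the 9 genes. Zeb1 leaned most towards the fibroblast side, with a slope difference (fibroblast minus epithelium) of 0.46 ± 0.06 (SE) per SD and an adjusted p of 8.2e-09. Twist1 (0.34, adjusted p = 9.4e-05), Fn1 (0.31, 6.33e-05), Vim (0.29, 1.8e-05), Snai2 (0.20, 0.0295) and Zeb2 (0.14, 0.00599) leaned the same way. Cdh1 (-0.08, adjusted p = 0.0154) and Snai1 (-0.20, 0.00408) leaned towards the epithelium side. Cdh2 had a difference of 0.28 and did not pass (adjusted p = 0.0918). Over all genes 15.4% had a higher and 21.6% a lower difference, against 6 and 2 of the 9 members.

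With the array set in the fit, Zeb1, Fn1, Twist1, Vim and Zeb2 kept their calls on the fibroblast side and Cdh1 its call on the epithelium side, while Snai1 (adjusted p = 0.484) and Snai2 (0.326) did not pass (9.07% of genes higher, 5.38% lower). In set 1 alone Zeb1, Fn1, Twist1 and Vim passed and Zeb2 did not (adjusted p = 0.0645, 9.8% of genes higher). Leaving out each of the 56 arrays in turn changed the call of 3 genes for the slope difference. Snai2 lost its call without tumour 3290 (adjusted p = 0.0515), 3854R (0.0508) or 4955 (0.0588), Cdh1 lost its call without tumour 5000 (0.0525), and Cdh2 gained one without tumour 3739 (0.0313). Without 3854R, 15.8% of genes were higher and 22.9% lower. In these 56 fits no call with the fibroblast or the epithelium score by itself changed.

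**Figure D3:**
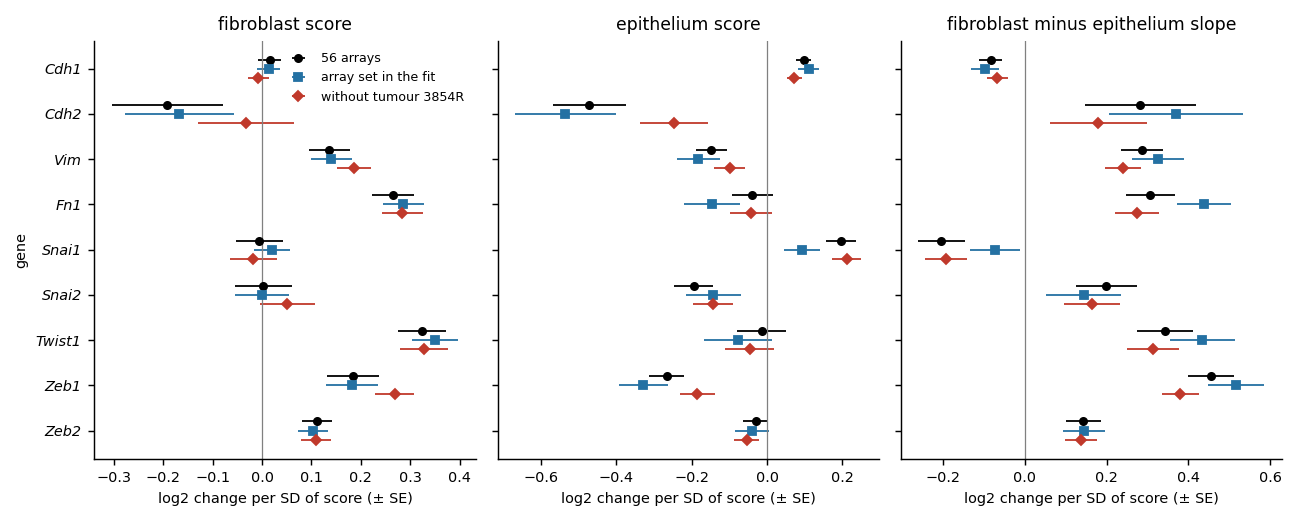
Change per SD of the fibroblast score, of the epithelium score, and the difference of both slopes in a joint fit, on the log2 scale with SE bars, for each gene; black circles are the 56 arrays, blue squares the fit with the array set as a term, red diamonds the fit without tumour 3854R. Twist1, Fn1, Zeb1, Vim and Zeb2 lie to the right of 0 on the fibroblast score in all fits, and Cdh2 moves from -0.47 to -0.25 on the epithelium score without tumour 3854R.

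Other cell types of a tumour piece gave further contrasts. Vim (r = 0.64), Zeb1 (0.63), Twist1 (0.62), Cdh2 (0.42) and Fn1 (0.42) rose with the pericyte and smooth muscle score, made from genes such as Acta2 and Rgs5. There 5 of 9 members were called where 2.94% of all genes were, in either direction. N-cadherin is a known adhesion protein between pericytes and endothelium, and its call was the weakest of the 5 along with that of Fn1 (limma adjusted p = 0.0372 and 0.0376). Cdh2 lost its call without tumour 3854R (adjusted p = 0.0832), where 13% of genes were called, and Snai1 gained one (0.0328). With the array set in the fit the same 5 were called, with 3.59% of all genes.

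Endothelium genes rose together with Fn1 (r = 0.59), Twist1 (0.58), Zeb2 (0.52) and Zeb1 (0.33), and these 4 of 9 members are near the 32.8% of all genes called. With the array set in the fit Vim was called too, with 26.3% of all genes. Macrophage genes rose with Fn1 (0.50), Twist1 (0.49) and Zeb2 (0.46), and these 3 of 9 members are near the 29.6% of all genes called. With the array set in the fit, and also without tumour 3854R, Vim and Zeb1 were called with the macrophage score too. The members called were then the same as with the fibroblast score, and the shares of all genes called in these fits are not given here. Zeb2 is known as a factor of macrophages and other myeloid cells. These scores do not separate the stromal cell types cleanly, since the fibroblast score had r = 0.84 with the macrophage and 0.78 with the endothelium score. When the fibroblast and macrophage slopes were fitted together, limma called their difference for 0 of the 9 genes (2 at an unadjusted p under 0.05, both higher), and for 0.812% of all genes.

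Snai2 was the member tied to the basal list, which holds keratins of the myoepithelial layer such as Krt5 and Krt14. Its r with the basal score was 0.52 (limma adjusted p = 0.0010). This 1 of 9 members called is near the 8.33% of all genes called. With the array set in the fit its adjusted p was 1.30e-05 (11.8% of genes called). Snai2 also rose with the skin score (r = 0.40, 5.02% of genes called), and the basal and skin scores had r = 0.77. Slug is known to act in basal mammary epithelium of the mouse.

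The adipocyte score was higher with Zeb2 (r = 0.52), Fn1 (0.49), Twist1 (0.46) and Zeb1 (0.41), and lower with Cdh2 (-0.35), with 18.1% of all genes called. The call of Cdh2 was lost with the array set in the fit (limma adjusted p = 0.0954) and without tumour 3854R (0.234). For T and NK cell genes, Twist1 and Zeb2 rose with the score (0.38 for both, 22.5% of genes called), and Fn1 with the skeletal muscle score (0.36, 11.2% called). These counts, 2 of 9 and 1 of 9 members, are near the shares over all genes. Peripheral nerve genes rose with Cdh1 (0.43) and Snai1 (0.36) and fell with Zeb1 (-0.39). These calls, 2 higher and 1 lower of 9 members, are near the 27.9% of all genes called. The peripheral nerve score itself rose with the epithelium score (r = 0.59), and with the array set in the fit limma called 0 of the 9 genes (1 at an unadjusted p under 0.05, higher). With the mitosis score limma called 0 of the 9 genes (1 at an unadjusted p under 0.05, lower) and 26.3% of all genes. Twist1 was called lower with the array set in the fit (adjusted p = 0.0347), and Cdh2 (0.0423) and Vim (0.0397) without tumour 3854R.

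**Figure D4:**
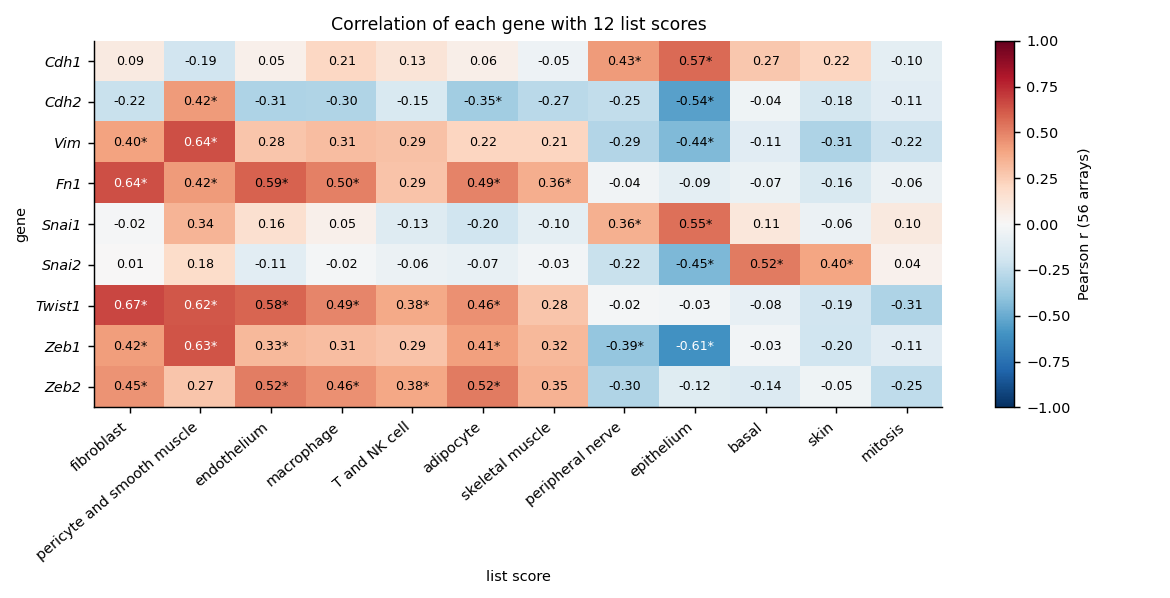
Pearson r over the 56 arrays between each of the 9 genes (rows) and 12 list scores (columns); an asterisk marks a limma adjusted p under 0.05 over all genes tested. Vim and Zeb1 have their highest r with the pericyte and smooth muscle column (0.64 and 0.63), Twist1 and Fn1 with the fibroblast column (0.67 and 0.64), Cdh1 and Snai1 with the epithelium column (0.57 and 0.55), and Snai2 with the basal column (0.52).

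Probe sets of the same gene moved closely together for Vim and Cdh2 and less so for Fn1, Snai2, Zeb1 and Zeb2. Of the 21 probe sets, 17 passed the filter. In a fit over 22034 probe sets, 9 of the 17 rose and 0 fell with the fibroblast score (18% of all probe sets called), 2 rose and 8 fell with the epithelium score (45.5%), and 2 rose with the basal score (6.72%). The second Fn1 probe set, whose mean of 4.86 lies below the limit for low values, had r = 0.49 with the first. Its r was -0.08 with the fibroblast score (limma adjusted p = 0.736) and -0.50 with the epithelium score (0.00031). The rise of Fn1 with the fibroblast score thus rests on the first probe set. The second Snai2 probe set had r = 0.68 with the first, 0.07 with the epithelium score and 0.71 with the basal score. The fall of Snai2 with the epithelium score thus rests on the first probe set, whose x suffix marks probes that may hybridise to other transcripts. For Zeb1 the other 3 probe sets had r of 0.05 to 0.56 with the first, and 2 of them did not pass the filter. The second Zeb1 probe set, which passed it, had r = 0.02 with the fibroblast score (limma adjusted p = 0.951). Its r with the epithelium score was -0.34 (0.0293). The rise of Zeb1 with the fibroblast score thus rests on the first probe set among those tested. The other probe sets of Vim had r of 0.81 and 0.96 with the first, that of Cdh2 0.92, and those of Zeb2 0.47 to 0.69, with r of 0.47 to 0.71 with the fibroblast score. The Vim probe set used also carries the x suffix. The Vim probe set without such a suffix had r = -0.17 with the epithelium score (limma adjusted p = 0.31). With the array set in the fit its adjusted p was 0.0357, against 0.0307 for the probe set used. In the gene fit without x, s and a suffixes, made without the array set, Vim changed by -0.08 with the epithelium score (0.203) and by 0.14 with the fibroblast score (0.0396). Cdh1, Snai1 and Twist1 had 1 probe set each.

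Vim, Zeb1, Twist1 and Fn1 moved together. Of the 36 pairs of the 9 genes, 12 passed the limma test in both directions of the fit, 11 of them with r above 0. Vim and Zeb1 were the closest pair (r = 0.75), followed by Vim with Twist1 (0.62), Cdh2 with Vim (0.61), Vim with Fn1 (0.58), Twist1 with Zeb1 (0.56) and Fn1 with Twist1 (0.52). Vim was thus paired with the matrix protein, with 2 transcription factors and with N-cadherin. The only called pair with r below 0 was Snai1 with Snai2 (-0.34), which did not pass with the array set in the fit (limma adjusted p = 0.571) or without tumour 3854R (0.060). Cdh1 was in no called pair. Its r was -0.40 with Cdh2 (rho = -0.27) and -0.30 with Zeb1 (rho = -0.19). Without tumour 3854R these r values were -0.23 and -0.14. The pair of Cdh2 and Zeb1 (r = 0.47, rho = 0.17) was not called without tumour 3854R, where r was 0.28. Without that tumour 9 pairs were called, and 9 with the array set in the fit.

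**Figure D5:**
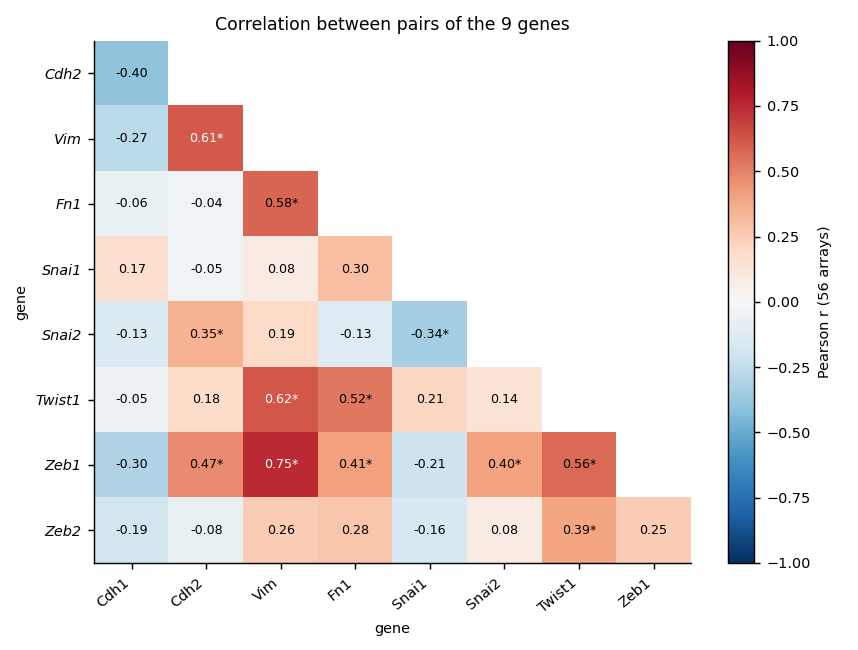
Pearson r over the 56 arrays for the 36 pairs of the 9 genes; an asterisk marks pairs with a limma adjusted p under 0.05 in both directions of the fit. Vim, Twist1, Fn1 and Zeb1 form the block of high r, with 0.75 for Vim and Zeb1, while no pair with Cdh1 passed.

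As a background to these pairs, the level of Cdh1 was related to 0.334% of all genes, that of Vim to 5.23%, Fn1 to 7.04%, Twist1 to 9.84%, Zeb1 to 13.3%, Zeb2 to 15.9%, Cdh2 to 17.1%, Snai2 to 25.5% and Snai1 to 36.9%. In these fits, made without the array set, E-cadherin thus had the fewest genes moving with it and Snai1 the most. Snai1 averaged 6.25 in set 4, against 5.60 in set 1 and 5.49 in set 3. The part of the array set in its share was not tested. The 3 genes most like each member were taken by the highest r over the 56 arrays. Zeb1 was most like Rasa3 (0.85), the mesenchymal homeobox gene Prrx1 (0.85) and Cav1 (0.83), which encodes caveolin. Vim was most like Trim35 (0.83), Serpinf1 (0.80) and the membrane glycoprotein gene Pdpn (0.80). Fn1 was most like Gpx7 (0.77), Emilin2 (0.76), whose product is an extracellular matrix protein, and the homeobox gene Prrx2 (0.76).

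Twist1 was most like the basement membrane gene Nid1 (r = 0.74), Antxr1 (0.74) and Mmp2 (0.73), a matrix metalloproteinase gene that is itself in the fibroblast list. Zeb2 was most like Acacb (0.61), F5 (0.60) and Esam (0.60), an endothelial adhesion gene in the endothelium list. Cdh2 was most like Gria4 (0.89), Morrbid (0.87) and Il17b (0.85), with 0.83, 0.81 and 0.81 without tumour 3854R. Snai1 was most like the actin-binding gene Tagln2 (0.82), Pdlim7 (0.78) and Git1 (0.77), and these fell to 0.67, 0.65 and 0.51 with the array set taken out. Snai2 was most like Sostdc1 (0.73), Ipmk (0.70) and Jmy (0.70). Cdh1 was most like Syngr1 (0.58), Mri1 (0.55) and Plcb3 (0.54), none of which passed with the array set in the fit.

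Tumours 3854R, 3569 and 3739, picked after their values were seen, show the extremes. Tumour 3854R had the lowest Cdh1 (10.73), the highest Cdh2 (8.57) and Zeb1 (8.63), and the second highest Vim (11.95) and Snai2 (9.10). Its Twist1 (4.42), Snai1 (5.4), Zeb2 (5.38) and Fn1 (10.33) were all below the median of the 56 arrays. The loss was broad among epithelium genes, 15 of 20 of which had their lowest value there, with the keratin Krt19 at 7.45 against a median of 10.65. Epcam was at 11.12 against a median of 11.85, and the lineage receptor gene Erbb3 was at its median (9.70 against 9.69). The fibroblast score was -2.44, with 7 of 19 genes at their lowest, among them Col1a1 (9.23) and Dcn (7.71), and 17 below their medians. Mmp2 (9.35 against a median of 9.32) and Sparc (11.55 against 11.52), from the same list, were near theirs. The macrophage and endothelium scores were the lowest of all arrays (-2.90 and -2.61), while the pericyte and smooth muscle score was the second highest (2.51). The most extreme genes of that score were contractile: Acta2 (12.65), Myh11 (8.05) and Cnn1 (8.29) were the highest of all arrays and Tagln (10.02) the second highest. The pericyte genes Rgs5 (9.12 against a median of 9.17), Notch3 (8.40 against 8.39), Kcnj8 (6.31 against 6.46) and Cspg4 (5.75 against 6.03) were near or below their medians. Mcam (7.41 against 7.08) and Abcc9 (7.55 against 7.35), from the same list, were above theirs. Of 11 mitosis genes, 6 were highest in this tumour and 1, Birc5 (8.71 against a median of 9.01), was below its median.

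Tumour 3569 had the highest Vim (12.07) and Twist1 (6.23), the second highest Cdh2 (7.63) and Zeb1 (8.04), and a Snai2 value of 8.69. Its Cdh1 (11.22) was at the median. The fibroblast score was 0.32 and the epithelium score -0.95, while its pericyte and smooth muscle score, 2.67, was the highest. Tumour 3739 had the lowest fibroblast score (-3.05) and the lowest Fn1 (8.79) and Zeb1 (6.01), with Vim at 10.56, Twist1 at 4.03 and Cdh1 at 11.38. Its Cdh2, 5.61, was above the median of 4.62.

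Genes that work with the members were examined in 4 lists. Of 18 junction partners, 9 rose and 1 fell with the epithelium score (26.4% and 17.5% of all genes), and 0 rose and 7 fell with the fibroblast score (12.4% and 9.12%). In the joint fit 10 of 18 leaned to the epithelium side, against 21.6% of all genes, among them the plakoglobin gene Jup (-0.37, limma adjusted p = 3.11e-06), the plakophilin gene Pkp3 (-0.23, 5.01e-07) and the polarity gene Llgl2 (-0.26, 1.25e-05). The median slope difference of the list was -0.15, against -0.015 over all genes. With the array set in the fit 9 of 18 still leaned that way. These junction genes lay on the same side as Cdh1, and several had larger differences than its -0.08.

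Of 8 epithelial regulators, 4 leaned to the epithelium side and 0 to the fibroblast side (3 and 0 with the array set in the fit). Among the 4 were the factors Klf5 (-0.47, adjusted p = 1.42e-07), Ovol1 (-0.48, 0.000127) and Grhl3 (-0.46, 0.000689) in the limma fit without the array set. Of 11 mesenchymal adhesion and matrix partners measured, 7 leaned to the fibroblast side and 2 to the epithelium side (5 and 0 with the array set in the fit), against 15.4% and 21.6% of all genes. The stromelysin gene Mmp3 (0.78, limma adjusted p = 2.71e-11), the collagen cross-linking enzyme gene Lox (0.31, 4.52e-07) and the cadherin gene Cdh11 (0.37, 7.89e-07) led, and the integrin gene Itga5 (-0.17) and the hyaluronan receptor gene Cd44 (-0.15) were the 2 on the epithelium side, both lost with the array set in the fit (adjusted p = 0.523 and 0.373). Unlike Cdh2, the mesenchymal cadherin Cdh11 was thus called on the fibroblast side. The difference between both cadherins was not tested.

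Of 13 other inducers and regulators of the transition that were tested, 5 leaned to the fibroblast side and 3 to the epithelium side (4 and 0 with the array set in the fit). Against 15.4% and 21.6% of all genes, the count on the epithelium side is near the background. Prrx1 (0.54, limma adjusted p = 5.31e-09) and the TGF-beta receptor gene Tgfbr2 (0.26, 6.66e-09) led on the fibroblast side. The E-box factor gene Tcf3 (-0.25, 3.96e-05) led on the epithelium side, where the ligand gene Tgfb1 (-0.15) and Foxc1 (-0.13) also lay. The list's median difference was -0.0039, against -0.015 over all genes.

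Titles divide the animals by the suffix R, which among the 56 arrays occurs in set 3 alone (8 arrays), and by the animal number, with 41 below and 15 above 4000. Snai1 was higher in the upper numbers, with a mean of 5.91 against 5.58 (difference 0.33 ± 0.10 SE, limma adjusted p = 0.0112), and was the only member called where 21.7% of all genes were. With the array set in the fit the difference was -0.03 (adjusted p = 0.968), and 8 of the 15 upper numbers form set 4, so number and array set cannot be told apart there. The slopes of Snai1 on the epithelium score differed between number ranges by 0.26 (adjusted p = 0.0364), the only such member, with 8.77% of all genes called. For the fibroblast slope limma called 0 of the 9 genes and 0.0159% of all genes, and 0 of the 9 had an unadjusted p under 0.05.

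In the 12 arrays with high 18S signal, which enter only fits over all 68 arrays, Cdh1 averaged 10.65 ± 0.37 (SD, n = 12), Vim 10.36 ± 0.41 and Fn1 9.45 ± 0.56, each below its mean in the 56 arrays (11.23, 11.08 and 10.31). Twist1 averaged 5.12 ± 0.40 and Zeb2 5.83 ± 0.14, each above its mean in the 56 arrays (4.79 and 5.61). Cdh2 averaged 4.84 ± 0.99 with a highest value of 7.16. Normalised levels of these arrays were not tested against the others.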

How the data were processed

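Total RNA of 68 mammary tumour pieces was extracted with Trizol and RNeasy columns and given a biotin label with a one-cycle kit, per the labels' protocols. The authors deposited values that the submitters' processing notes name as RMA, taken as log2 because they span 1.68 to 14.57. The log base, settings and software version are not given in the sources used here. Raw probe intensities were not used. RMA draws arrays towards a common distribution, so a shift shared by most genes is not visible. Of 45101 probe sets, 34958 are annotated to 1 gene, 932 to several, 9211 are not listed and 64 are controls. A gene was read from its probe set with the highest mean among those of 1 gene, and tested if the 95th percentile over the 56 arrays exceeded the median of all values (5.42). List scores are mean z-scores scaled to an SD of 1. Array sets are splits shared exactly by no fewer than 20 probe sets from 10 or more chromosomes. Fits used limma 3.58.1 in R 4.3.3 (lmFit, eBayes), with Benjamini-Hochberg adjustment over all genes tested and a threshold of 0.05, and were tested on simulated data. Permutation p-values are two-sided over 100000 draws (numpy 2.4.6, with ranks from scipy 1.17.1) for 18 relations of members with both scores. Array data give no read depth, and the number of arrays limits precision. Whether the 56 tumours came from separate animals is taken from their numbers. The named genes are all members, the 3 genes with the highest r for each member, and in each of 4 pathway lists the 3 with the largest absolute t in the joint fit; Itga5, Cd44, Tgfb1 and Foxc1 were added after their values were seen. The members and lists were chosen with earlier results of these data known. List genes without a probe set of their own were not analysed here.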

Additional observations from a re-analysis of the deposited data

Results flagged for a closer look

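The slope of Snai1 on the epithelium score differed between number ranges. The difference, upper minus lower numbers, was 0.26 ± 0.08 (SE) per SD of the score in the interaction test (limma adjusted p = 0.0364, 15 against 41 arrays). With the array set in the fit it was 0.03 (limma adjusted p = 0.983). All 8 arrays of set 4, where Snai1 was highest, carry upper numbers, so number and array set cannot be told apart within set 4. Sets 1 and 3 hold 4 and 3 upper numbers beside lower ones. No group was of a size at which single outlying samples are tested.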

How the results depend on the processing

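No paired analysis was possible because the labels give 1 group; 2 animal numbers have 2 arrays each, of which only 1 is among the 56, and fits over 68 arrays took both as separate samples. Over the 12568 genes of the main setting, 2699 were called with the fibroblast score, 5514 with the epithelium score and 4657 in the joint fit. Values of single genes and alternatives kept their side of the threshold in 436 cases (29 of them, called in neither setting, changed sign), lost the call in 48, gained one in 7, and in 7 a value called in either setting changed sign. These 7 were Fn1 with the fibroblast score read from the probe set with the largest SD (-0.082), Vim (0.12), Fn1 (0.22) and Snai2 (0.0010) with the epithelium score over all 68 arrays, Snai2 with suffix x, s or a probe sets left out (0.034 with the epithelium score, -0.023 in the joint fit), and Snai1 by number range with the array set in the fit (-0.028). For the fibroblast score, members called higher were 3 with the probe set of largest SD, 2 with the mean of probe sets, which left Zeb1 and Zeb2 untested, and 0 with upper numbers alone, where Twist1 was not tested; all genes called were 1640 in set 1, 8703 with 68 arrays and 539 with upper numbers. For the epithelium score (2 higher, 4 lower), members called were 1 higher with the array set in the fit, 0 higher and 1 lower in set 1, 4 higher with 68 arrays, 1 higher with lower numbers, 1 higher and 1 lower with upper numbers, and 2 lower without suffix x, s or a probe sets; all genes called were 1411, 1787, 9817, 3240 and 3196 in the first 5 of these settings, and 3500 with RNA quality covariates. In the joint fit (6 higher, 2 lower), 1 was lower with the array set in the fit, with RNA quality covariates and with lower numbers, 0 lower in set 1, 3 higher with the mean of probe sets, and 2 higher and 1 lower with upper numbers; all genes called were 1816 with the array set, 1835 in set 1 and 1524 with lower numbers. By number range, 0 members were called with the array set in the fit or with 68 arrays, for the difference and for the epithelium slope. Centring each array on its median moved the split of calls from 3318 higher and 2196 lower to 2565 and 2744 for the epithelium score, and from 1941 and 2716 to 2152 and 2111 in the joint fit. The cause was not tested where the setting itself does not show it. In array set 1 the epithelium score spans less, and low probe sets such as those of Cdh2 and Twist1 lie near the filter, which left both untested under the stricter filter.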
